A study of Ovis aries and Bos taurus with 10 samples.

Results

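The array of oocytes laser-captured from primordial follicles, PDO, was set against the array of the granulosa cells (GC) captured from the same kind of follicle, PDG. These were 2 of the 10 arrays of a study of early follicle growth in the sheep. Both held RNA of newborn lambs under 1 day of age, pooled from 2 animals, and no treatment separated them. A follicle was taken as primordial when flattened GC alone surrounded its oocyte. The cells were cut from stained frozen sections with a laser, and after column extraction their RNA went through 2 rounds of T7 amplification and turbo biotin labelling, which the study calls protocol 3. The sheep RNA was hybridized to the Affymetrix Bovine array, whose probes follow cattle sequences. As context served the paired captures of primary follicles (PMO and PMG, 4 animals) and of secondary follicles (SECO and SECG, 2 animals), treated alike, and a whole ovine fetal ovary of 132 days post coitum labelled by protocol 3.

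A probe set is a group of short probes for 1 transcript, and its value is a MAS 5.0 signal intensity. Compared were the probe sets among the brightest 35% on PDO or on PDG, 9739 of the 24016 that are no controls. On PDO the lowest signal inside this limit was 50.4195 and the next one outside was 50.4186, and on PDG they were 48.8535 and 48.8521. Both arrays had 7073 of the probe sets above the limit, and each alone had 1333. Of the compared probe sets 65.0% carried a single gene symbol. For a gene with several probe sets the one with the highest mean signal on PDO and PDG stands for it, and 5528 of 9155 genes were compared in this way. Differences are log2(PDO signal + 20) minus log2(PDG signal + 20), so that a positive value means more on PDO. There was 1 array a side: the values carry no replicate error and no test, and a difference of these arrays is not yet one of the cell types. Where a gene lay under the limit on one array, its difference depends in part on the constant of 20, and the fold is given as a lower bound, the brighter signal over the limit of the dimmer array.

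Primordial follicles are the resting reserve of the ovary, and each holds an oocyte halted in meiotic prophase inside a thin layer of GC. The oocyte stores RNA, starts to build the zona pellucida coat and signals to the GC through members of the TGF-beta family. The GC answer with KIT ligand, turn cuboidal and divide once a follicle leaves the reserve, while a basement membrane parts them from the stroma, where the vessels run.

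Of the probe sets compared, 804 (8.26%) were at least 2-fold higher on PDO and 967 (9.93%) at least 2-fold higher on PDG. At 4-fold the counts were 33 (0.339%) and 87 (0.893%), and at 8-fold they were 3 (0.0308%) and 5 (0.0513%). Counts take in genes under the limit on one array, whose measured bound can be under 2-fold; with both arrays required above the limit, 369 and 535 probe sets were at least 2-fold apart. By genes, 460 (8.32%) were at least 2-fold higher on PDO and 492 (8.90%) on PDG, and the median difference over all 5528 genes was 0.06. The counts of list members below are to be set beside 8.32% and 8.90%. With both arrays centred on the median of the ribosomal protein genes, which raised every difference by 0.17, the counts of probe sets turned to 1203 on PDO and 667 on PDG, so which side held more depends on the scaling. Differences ran from -0.49 at the 25th to 0.51 at the 75th percentile, with a standard deviation (SD) of 0.77 over all probe sets. At the 2-fold line the nearest values were 1.00056 inside and 0.999869 outside on the PDO side, and -1.00014 inside and -0.998486 outside on the PDG side.

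**Figure D1:**
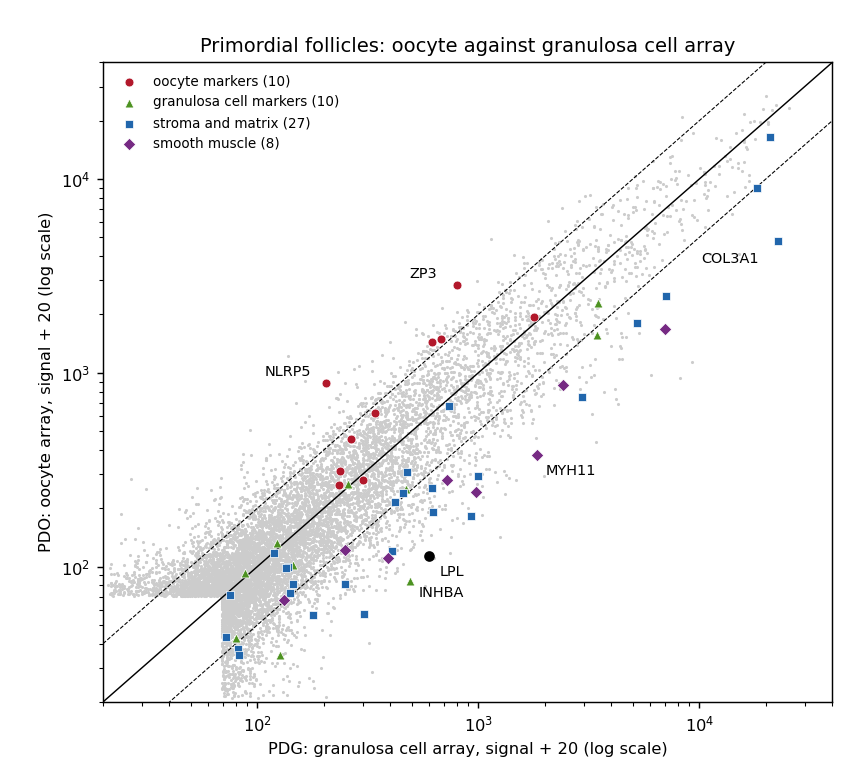
Signal plus 20 on PDG (horizontal, log scale) and on PDO (vertical, log scale) for the 9739 probe sets compared, in grey, with 1 point a gene for 4 marker lists and for LPL. The solid line marks equal signals and the dashed lines 2-fold. The zona pellucida genes and NLRP5 lie above the upper dashed line, while COL3A1, MYH11, INHBA and LPL lie below the lower one.

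The only measure of error inside these arrays comes from genes with over 1 probe set. For 688 such genes the pooled SD between the differences of their probe sets was 0.654, close to the SD of all probe sets. Of 57 such genes that were at least 2-fold higher on PDO, all probe sets had that sign in 37 (64.9%), and of 56 on the PDG side in 45 (80.4%). A single probe set near the 2-fold line is thus a weak base for a statement on its gene.

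Depth does not apply to arrays, but the controls show how alike the arrays ran. The GAPDH signal from the 3' end was 20.8 times that from the 5' end on PDO and 10.6 times on PDG, and 13.8 and 13.9 times that from the middle. Bacillus subtilis transcripts, added to the RNA before amplification, had 5 of 12 probe sets above a limit, with differences from 0.03 to 0.80 and a median of 0.63. The 9 probe sets of the hybridization controls differed by 0.33 to 0.54. Every control probe set above a limit was thus higher on PDO, and what part this had in the results was not tested.

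The label of PDO was set against oocyte markers, most of them genes of the egg coat, the maternal store and the germ line; the list was chosen with these values known, so it is a description and no independent support of the label. Of 43 oocyte markers 12 had a symbol on the array and 10 were compared, of which 4 were at least 2-fold higher on PDO and 0 on PDG, where 8.32% and 8.90% of all genes were. The median difference of the list was 0.83, against 0.06 over all genes. ZP3, the zona pellucida glycoprotein that binds sperm, had a signal of 2822 on PDO and 778 on PDG, a difference of 1.83. ZP2 had 1418 on PDO and 598 on PDG (1.22). ZP4 had 1475 on PDO and 656 on PDG (1.15). All 3 zona genes on the array were thus more than 2-fold higher on PDO. NLRP5, known as MATER, belongs to a protein complex under the oocyte membrane that the early embryo needs, and it had the largest difference of the list, 2.11, with signals of 861 on PDO and 184 on PDG.

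The remaining oocyte markers differed less. KIT, the receptor through which the oocyte hears the GC, had 603 on PDO and 319.5 on PDG (0.88). OOEP, a partner of NLRP5, had 438 on PDO and 245 on PDG (0.79). MAEL, which guards the germ line against transposons, had 290.1 on PDO and 218 on PDG (0.38), and its other probe sets differed by 0.93 to 0.97. The growth factor GDF9, which the oocyte secretes, was the member below 0, with 259 on PDO and 282 on PDG (-0.11), and that sign turned when both arrays were centred on ribosomal protein genes (0.06). BMP15 and SYCP3 lay under the limit on both arrays. Every marker compared was above the limit on PDG too, and the signals of the list summed to 10354 on PDO, to 5315 on PDG and to 7969.8 on the whole fetal ovary. On arrays of captured tissue, fewer cells of a type and less RNA per cell cannot be told apart.

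The label of PDG was set against GC markers. Of 24 GC markers 20 were on the array and 10 were compared, with a median of -0.76. All 10 were above the limit on PDG and 8 on PDO, so the median leans to PDG in part by construction. At least 2-fold higher were 3 on PDG and 0 on PDO, where 8.90% and 8.32% of all genes were. INHBA, which encodes the activin A subunit, led with 64.1 on PDO and 469.6 on PDG (-2.54). FST, the activin-binding follistatin, had 107 on PDG and lay under the limit on PDO, a difference of at least 2.12-fold. NR2F2, a nuclear receptor that ovarian stroma expresses as well, had 1544 on PDO and 3408 on PDG (-1.13), and its other probe sets gave -1.80 and -1.67. The transcription factors GATA6 (230.4 on PDO and 452 on PDG, -0.92) and GATA4 (82.4 on PDO and 125 on PDG, -0.50) stayed within 2-fold.

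Several defining GC genes were not among the brightest 35% on either array. They were AMH, which restrains follicle recruitment, FOXL2, the factor that keeps GC identity, KITLG, which encodes KIT ligand, the FSH receptor FSHR, the inhibin subunit INHA and the aromatase CYP19A1. Their signals on PDG ran from 2.03 for CYP19A1 to 36.7 for INHA, where the limit was 48.9. Under the limits their differences went either way. CYP19A1 (0.84), KITLG (0.52) and FSHR (0.24) were higher on PDO, and AMH (-0.72), INHA (-0.26) and FOXL2 (-0.13) on PDG. The rest of the GC markers under both limits were all higher on PDO. They were HSD17B1 (1.10), KRT8 (0.67), CYP11A1 (0.19) and IGFBP5 (0.04). The sizes depend in part on the added constant. NR5A1, SERPINE2 and KRT18 were above the limit and near equal, with differences of 0.07, 0.05 and 0.11. As these genes were not above the limit, the array is called PDG here and not by a cell type.

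**Figure D2:**
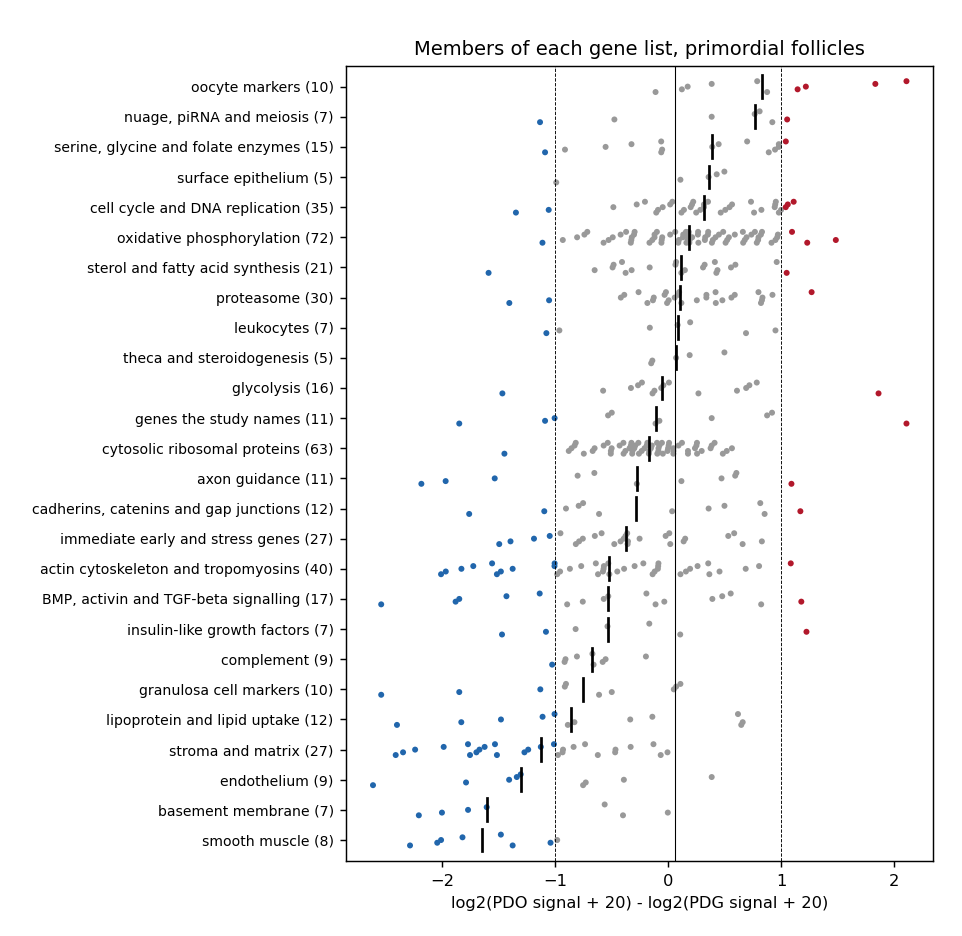
Difference between PDO and PDG on the log2 scale (horizontal) for each compared member of the gene lists with 5 or more such members, in order of the list's median (black bars). Red points are at least 2-fold higher on PDO and blue points at least 2-fold higher on PDG (dashed lines); the thin line is the median of all genes, 0.06. Smooth muscle, basement membrane, endothelium and stroma stand lowest, and oocyte markers highest.

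Matrix and vessel genes lay mostly on the PDG side. Taken over the stroma and matrix, basement membrane, smooth muscle and endothelium lists, 31 of 51 genes compared were at least 2-fold higher on PDG and 0 on PDO, and 1 gene had a difference above 0. Beside this, 8.90% of all genes were at least 2-fold higher on PDG. The lists were put together here after their values were seen. The median of the 51 was -1.31. All 51 were above the limit on PDG, and some entered through PDG alone, so the count leans to PDG in part by construction. Above the limit on PDO were 22 of 27 stroma and matrix, 6 of 7 basement membrane, 7 of 8 smooth muscle and 6 of 9 endothelium genes. Members under the limit on both arrays were left out and went either way, such as LMOD1 (0.95) and CSRP1 (-1.65).

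Among the collagens and matrix proteins, 15 of 27 compared were at least 2-fold higher on PDG and the other 12 were below 0 as well (median -1.13). COL3A1, the type III fibrillar collagen of soft connective tissue, had 4765 on PDO and 22597 on PDG (-2.24), and a further probe set differed by -3.03. COL1A1, of type I collagen, had 162 on PDO and 907 on PDG (-2.35). Biglycan (BGN), a small proteoglycan of the matrix, was at 283 on PDG and under the limit on PDO, at least 5.62-fold apart. FBN1, the fibrillin of elastic microfibrils, had 727 on PDO and 2941 on PDG (-1.99). Osteoglycin (OGN) had 272 on PDO and 977 on PDG (-1.77). These genes share a place in the matrix of connective tissue, yet the list was not uniform: COL6A1 (-0.01), the metalloproteinase inhibitor TIMP3 (-0.07) and thrombospondin THBS1 (-0.13) were near equal on both arrays.

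Basement membrane genes followed, with 4 of 7 at least 2-fold higher on PDG and a median of -1.61. COL4A1, the network-forming type IV collagen, had 208 on PDO and 1031 on PDG (-2.21). The laminin chain LAMB1 had 239 on PDO and 1019.9 on PDG. LAMA4, a laminin chain of vessel and muscle, differed by -1.77, though a further probe set gave -0.05. Nidogen NID1, which links laminin to type IV collagen, differed by -1.61. Perlecan (HSPG2) was equal on both arrays, at 84.1 on PDO and 84.4 on PDG. With the probe sets of each gene averaged, the median of the list was -0.91.

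Smooth muscle genes had the lowest median of all lists, -1.65, with 7 of 8 at least 2-fold higher on PDG. MYH11, the smooth muscle myosin heavy chain, had 356 on PDO and 1814 on PDG (-2.29). MYLK, the kinase that starts its contraction, had 1671 on PDO and 6959 on PDG (-2.04), with -2.75 by a further probe set. The smooth muscle actin ACTA2 had 90.3 on PDO and 370.0 on PDG (-1.82). Calponin CNN1, which binds actin, had 101 on PDO and 229.6 on PDG (-1.04). The member short of 2-fold was FLNA, a filamin that links actin filaments, with 47.0 on PDO and 112 on PDG (-0.98), under the limit on PDO. The defining markers desmin (DES), transgelin (TAGLN) and LMOD1 lay under the limit on both arrays, as did the pericyte marker RGS5. The summed signal of the 14 genes on the array was 3668 on PDO, 13639.6 on PDG and 13202 on the whole fetal ovary.

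For the endothelium, 5 of 9 markers were at least 2-fold higher on PDG (median -1.31). PECAM1, the adhesion molecule of endothelial junctions, had 322 on PDO and 888 on PDG (-1.41). TEK, the angiopoietin receptor, had 487 on PDO and 1263 on PDG (-1.34). Its ligand ANGPT2 had 135 on PDG and was under the limit on PDO, at least 2.67-fold apart. The receptor-type phosphatase PTPRB, an endothelial partner of TEK, had 86.2 on PDO and 347 on PDG (-1.79), while FLT1, a VEGF receptor, leaned the other way with 87.5 on PDO and 62.3 on PDG (0.38). The endothelial markers VWF, KDR, TIE1 and CLDN5 were under the limit on both arrays. The sum of the list was 1435 on PDO, 3443 on PDG and 1916 on the fetal ovary.

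**Figure D3:**
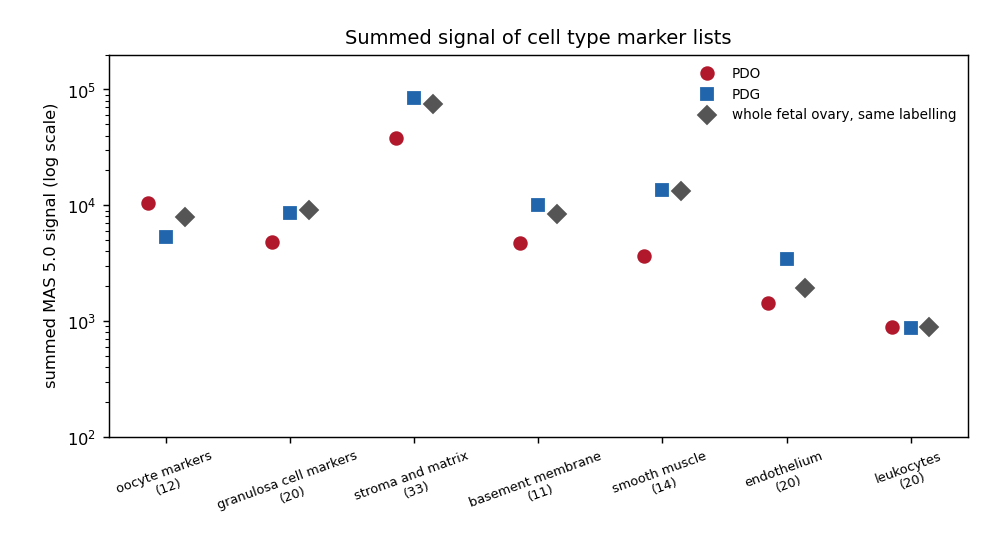
Summed MAS 5.0 signal (log scale) of all members on the array, their number in brackets, for 7 cell type lists on PDO, PDG and the whole ovine fetal ovary with the same labelling. PDG lies above PDO for the GC, stroma, basement membrane, smooth muscle and endothelium lists and close to the fetal ovary for most of them, and below both for oocyte markers.

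Leukocyte markers did not move with these lists. They had a median of 0.08, with 1 of 7 at least 2-fold higher on PDG, and sums of 886 on PDO and 868 on PDG. The common leukocyte marker PTPRC was under the limit on both arrays. The red cell list had 2 genes compared: beta globin HBB was under the limit on PDO and 103 on PDG, at least 2.04-fold apart, and neither of the 2 passed 2-fold with the constant of 20. Surface epithelium genes (median 0.36, 5 compared) and theca and steroid genes (0.07, 5 compared) had 0 members past 2-fold on either side. What share of the PDG-side differences came with matrix, muscle and vessel RNA was not tested.

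Genes of the actin cytoskeleton leaned to PDG as well. Of 40 actin and tropomyosin genes 10 were at least 2-fold higher on PDG (8.90% of all genes) and 1 on PDO (8.32%), with a median of -0.53. The tropomyosins coat actin filaments, and 3 of them differed by -2.01 (TPM2), -1.73 (TPM4) and -1.48 (TPM1). The further probe set of TPM1 gave -0.05. TPM4 had 1587 on PDO and 5295 on PDG. PLS3, an actin bundler, was at 199 on PDG and under the limit on PDO, at least 3.96-fold apart. The gene past 2-fold on PDO was ezrin (EZR), which ties actin to the membrane of microvilli, with 1039 on PDO and 479 on PDG (1.08). The list shares CALD1, FLNA, TPM1 and TPM2 with the smooth muscle list.

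Of 17 genes of BMP, activin and TGF-beta signalling (median -0.53), 5 were at least 2-fold higher on PDG (8.90% of all genes) and 1 on PDO (8.32%). Apart from INHBA and FST they included TGFBR2, the type II TGF-beta receptor, with 622 on PDO and 1714 on PDG (-1.43). LTBP1, which stores latent TGF-beta in the matrix, was 144 on PDG, at least 2.86-fold above PDO. On the PDO side FSTL3, a relative of follistatin, was at 60.9, at least 1.25-fold above PDG. Within 2-fold, the effectors SMAD2 (0.48) and SMAD3 (0.55), the pseudoreceptor BAMBI (0.39) and the receptor ACVRL1 (0.82, under the limit on PDG) were above 0, and the target genes ID2 (-0.53) and ID3 (-0.19) below 0.

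In the insulin-like growth factor family, IGFBP3, the main carrier of IGF, had 1048 on PDO and 2941 on PDG (-1.47), with -0.07 by its further probe set. IGFBP7 had 6605 on PDO and 14012 on PDG (-1.08). In the opposite direction IGF2BP3, an RNA-binding protein, had 419 on PDO and 168 on PDG (1.22), but its further probe set went the other way (-0.84). Of 11 axon guidance genes 3 were at least 2-fold higher on PDG (8.90% of all genes) and 1 on PDO, near the 8.32% of all genes. NRP1, a receptor of semaphorins and VEGF, had 72.5 on PDO and 401 on PDG (-2.19). DPYSL2 had 1354 on PDO and 3965 on PDG (-1.54). PAK4, a kinase acting on the cytoskeleton, was the member on the PDO side with 128 on PDO and 49.5 on PDG (1.09). Among cadherins, catenins and gap junctions, the mesenchymal cadherin CDH11 had 187 on PDO and 684 on PDG (-1.76) and beta-catenin CTNNB1 had 308 on PDO and 683 on PDG (-1.10). The gap junction gene GJB2 ran against them with 275 on PDO and 111 on PDG (1.17).

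Lipid uptake was the metabolic list with the lowest median, -0.86. Of its 12 compared genes 5 were at least 2-fold higher on PDG, where 8.90% of all genes were. LPL, which frees fatty acids from lipoproteins at the cell surface, had 92.7 on PDO and 576 on PDG (-2.40). FABP5, a fatty acid carrier, had 82.4 on PDO and 266 on PDG (-1.48). Apolipoprotein D (APOD) had 297 on PDO and 665 on PDG (-1.11). The rest of the 5, APOA1 and LIPA, lay under the limit on PDO, with bounds of 1.18- and 1.74-fold. Of the 12 genes 11 were above the limit on PDG and 8 on PDO, so the count leans to PDG in part by construction. The enzymes that make lipids did not follow. Of 21 sterol and fatty acid synthesis genes 1 was at least 2-fold higher on PDO (8.32% of all genes) and 1 on PDG (8.90%). FDPS, an enzyme of the isoprenoid pathway, had 1709 on PDO and 816 on PDG (1.05). FADS2, a fatty acid desaturase, was 80.1 on PDG, at least 1.59-fold above PDO.

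Energy genes were nearer to equal. Of 72 oxidative phosphorylation genes 49 were above 0, as were 53.2% of all genes, and 3 at least 2-fold higher on PDO and 1 on PDG (median 0.19). The 3 were subunits of complex I, which feeds electrons from NADH into the chain. NDUFB9 had 1557 on PDO and 544 on PDG (1.48). NDUFA9 had 1356 on PDO and 567 on PDG (1.23). NDUFA7 had 170.4 on PDO and 69.1 on PDG (1.10). Grouped by name after their values were seen, 27 of 34 NDUF genes were above 0 (median 0.29), as were 7 of 10 COX genes of complex IV (median 0.39) and 6 of 15 ATP5 genes of the ATP synthase (median -0.17). After centring on ribosomal protein genes these medians were 0.46, 0.55 and 0.00. UQCRFS1, the iron-sulfur protein of complex III, was the member past 2-fold on PDG with 622 on PDO and 1369 on PDG (-1.11). Glycolysis had a median of -0.05 over 16 genes, or 0.12 after centring on ribosomal protein genes. Its members split: PKLR, a pyruvate kinase, was 95.2 on PDO, at least 1.95-fold above PDG, and the glucose transporter SLC2A1 was 54.6 on PDG, at least 1.08-fold above PDO.

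Of 35 cell cycle and DNA replication genes 27 were above 0, with a median of 0.32. At least 2-fold higher were 3 on PDO and 2 on PDG, near or below the 8.32% and 8.90% of all genes. The kinase AURKA, which builds spindles, had 2028 on PDO and 976 on PDG (1.04), and 0.76 by its further probe set. PCNA, the sliding clamp of DNA polymerase, had 1705 on PDO and 808 on PDG (1.06). WEE1, the kinase that holds CDK1 inactive, was 94.8 on PDO, at least 1.94-fold above PDG. The members past 2-fold on the PDG side were cyclin D2 (CCND2), a cyclin that GC use to divide, with 135 on PDO and 376 on PDG (-1.35), and the inhibitor CDKN1C with 540.3 on PDO and 1147 on PDG (-1.06). Other members lay nearer 0, such as AURKB (-0.28, under the limit on PDO), CCNA2 (-0.09), CCND3 (-0.21) and CDKN1A (0.14).

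Of 7 genes of nuage, piRNA and meiosis, 5 were above 0 (median 0.77). STAG3, the cohesin subunit of meiotic chromosomes, had 430.1 on PDO and 197 on PDG (1.05), and 0.73 by its further probe set. RAD21, the cohesin subunit of dividing somatic cells, stood on the other side with 793 on PDO and 1765 on PDG (-1.14). TDRD7 (0.77), TDRD6 (0.92, under the limit on PDG) and GTSF1 (0.81), which serve the piRNA pathway, were higher on PDO within 2-fold.

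The cytosolic ribosomal protein and proteasome lists were close to even. Beside the counts that follow, 8.32% of all genes were at least 2-fold higher on PDO and 8.90% on PDG. Of 63 cytosolic ribosomal protein genes 0 were at least 2-fold higher on PDO and 1 on PDG, with a median of -0.17. That gene was RPS29 (4067 on PDO and 11149 on PDG, -1.45). Of 30 proteasome genes 1 passed 2-fold on PDO, PSMD4 (1.27), and 2 on PDG, PSMA1 (-1.41) and PSME2 (-1.05), with a median of 0.11. Of 15 serine, glycine and folate enzymes, cystathionine synthase CBS was at least 2.21-fold higher on PDO. In that list PHGDH, the entry enzyme of serine synthesis, had 84.3 on PDO and 202 on PDG (-1.09). Among 27 immediate early and stress genes 4 were at least 2-fold higher on PDG and 0 on PDO. EGR1 had 153 on PDO and 468 on PDG (-1.50), and MYC, a growth regulator, had 79.5 on PDO and 186 on PDG (-1.05). All 9 complement genes compared were below 0 (median -0.67), with C3 past 2-fold at 452 on PDO and 942 on PDG (-1.03). All 9 were above the limit on PDG and 7 on PDO. Members under both limits went either way, such as CFP (0.48) and C1QB (-1.03). At the primary stage the median of the 9 was 0.53, with 4 at least 2-fold higher on PMO and 0 on PMG. There 10.1% and 8.72% of all genes were. At the secondary stage the median was 0.00. Of the sirtuins, NAD-dependent deacylases, SIRT1 had 89.4 on PDO and 213 on PDG (-1.09) and SIRT7 131 on PDO and 60.0 on PDG (0.92).

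Of 19 genes that the study names, 18 were on the array and 11 were compared. Besides NLRP5 on the PDO side and FST, PHGDH and ACTB (-1.01) on the PDG side, none passed 2-fold. The study chose these genes, so the list is no independent evidence of a direction. ACTB and RPL19 were the reference genes of the study. ACTB had 73.7 on PDO and 168 on PDG, and RPL19 had 7796 on PDO and 8232 on PDG (-0.08).

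Among the 15 genes with the largest differences on PDO, NLRP5 was the only member of the oocyte marker list. PLLP, plasmolipin, a membrane proteolipid, had the largest difference on that side among genes above the limit on both arrays, with 1195 on PDO and 117 on PDG (3.15). PGS1, an enzyme of cardiolipin synthesis in mitochondria, was 264 on PDO and under the limit on PDG, at least 5.41-fold apart; its place in the order depends on the constant of 20. PAF1, a subunit of the complex that travels with RNA polymerase II, had 893 on PDO and 145 on PDG (2.47). GPX4, the peroxidase that repairs oxidized membrane lipids, had 675 on PDO and 129 on PDG (2.22). GALNT14, which starts O-linked sugar chains, had 4878 on PDO and 1124 on PDG (2.10). The ciliogenesis gene WDPCP had 362 on PDO and 66.2 on PDG (2.15). GTF2F2, a subunit of the transcription factor TFIIF, had 994 on PDO and 213 on PDG (2.12), but its further probe set differed by -0.14.

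Besides NLRP5, the remaining 7 of the 15 lay under the limit on PDG, so that their folds are given as bounds. NAT10, an RNA acetyltransferase, was 236 on PDO and at least 4.83-fold higher. BORCS5, which helps to place lysosomes, was 208 and at least 4.26-fold higher. The transcription factor MEF2C was 138 and at least 2.83-fold higher. For UBE4A, FGF11, PLSCR3 and PXMP4 the bounds were 2.42-, 2.32-, 1.70- and 1.60-fold. In all, 7 of the 15 were above the limit on both arrays, and the smallest difference among them was 2.10.

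Of the 15 genes with the largest differences on PDG, BGN, ANGPT2 and INHBA were members of the cell type lists. HEBP2, a heme-binding protein, had the largest difference on that side among genes above the limit on both arrays, with 122 on PDO and 1228 on PDG (-3.14). MMP14, a membrane-bound protease that cuts collagen, was 183 on PDG and 1.17 on PDO, under the limit, so at least 3.64-fold apart. CCN2, a matrix protein induced by TGF-beta and tension, had 958 on PDO and 6047 on PDG (-2.63). COL11A1, a minor fibrillar collagen, had 59.1 on PDO and 552 on PDG (-2.86), while its other probe sets differed by -0.78 and -0.29. ITGA7, the laminin receptor chain of muscle, was 150.4 on PDG and at least 2.98-fold higher. PLPP3, a phosphatase of lipid signals, had 590.1 on PDO and 3251 on PDG (-2.42), with -1.52 from a further probe set. FKBP9, a prolyl isomerase of the endoplasmic reticulum, had 90.7 on PDO and 613 on PDG (-2.51).

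SIRPA, the inhibitory receptor that binds CD47, had 921 on PDO and 8131 on PDG (-3.11). Its other probe sets gave -0.21 and 0.59, so the gene as a whole is not settled. TM4SF18, a tetraspanin-like membrane protein, had 165 on PDO and 1019 on PDG (-2.49), and its further probe set gave -0.35. PLAC8B, the mitochondrial kinase DGUOK and the adhesion molecule ICAM3 were under the limit on PDO, with bounds of 3.46-, 2.20- and 2.35-fold. With INHBA, ANGPT2 and BGN, described above, these make up the 15, of which 8 were above the limit on both arrays.

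**Figure D4:**
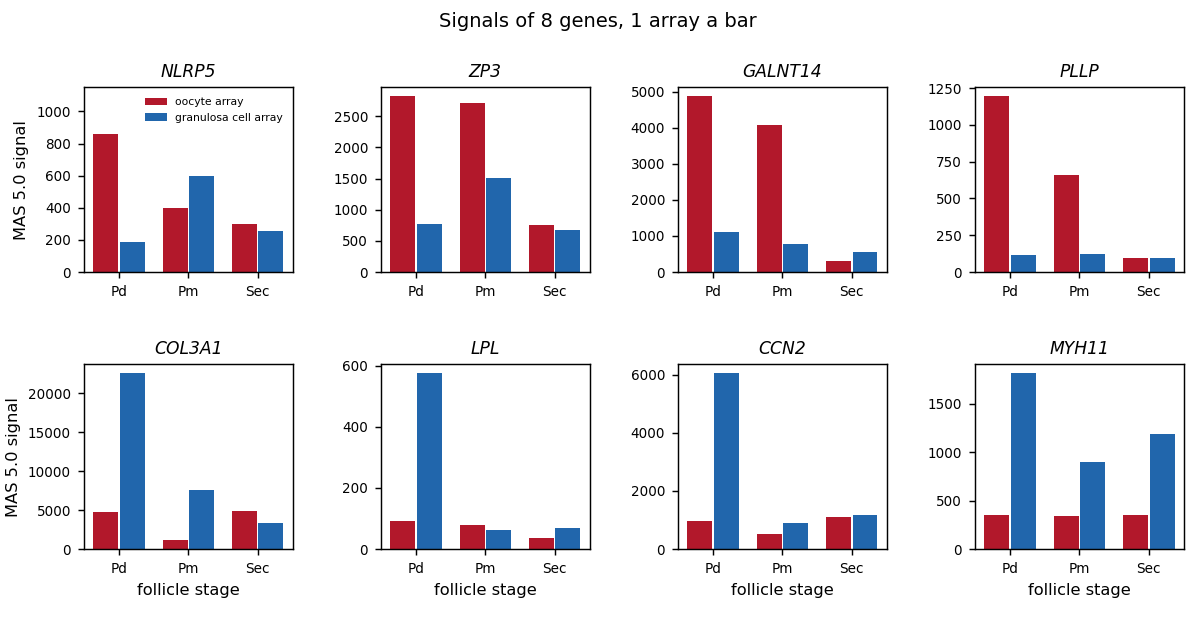
MAS 5.0 signals of 8 genes on the oocyte arrays (red) and GC arrays (blue) at the primordial stage (Pd), the primary stage (Pm) and the secondary stage (Sec), 1 array a bar, each panel on its own linear scale from 0. The primordial difference of GALNT14, PLLP and COL3A1 recurred at the primary stage, that of MYH11 at both later stages, and those of NLRP5, ZP3, LPL and CCN2 stayed within 2-fold later.

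The arrays of the later stages, which the ranking did not use, show how far these differences recurred. Of the 804 probe sets at least 2-fold higher on PDO, 23.8% were at least 2-fold higher on PMO than on PMG, against 10.0% of all compared. At the secondary stage the share was 14.4%, against 8.54%. Of the 967 on the PDG side 24.2% were at least 2-fold higher on PMG (9.99% of all) and 16.1% on SECG (7.96% of all). The share was higher at the primary stage for the 4-fold sets, 39.4% of 33 on the PDO side and 40.2% of 87 on the PDG side. In the opposite direction by 2-fold went 6.72% and 6.59% of the PDO-side probe sets at the primary and secondary stage, and 5.48% and 10.8% of the PDG-side ones. Over the 9739 probe sets the differences correlated across probe sets at r = 0.33 between the primordial and primary stage and at r = 0.13 between the primordial and secondary stage. Between the primary and secondary stage r was 0.12. These correlations describe probe sets that share sequence and labelling, and they are no replicates.

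**Figure D5:**
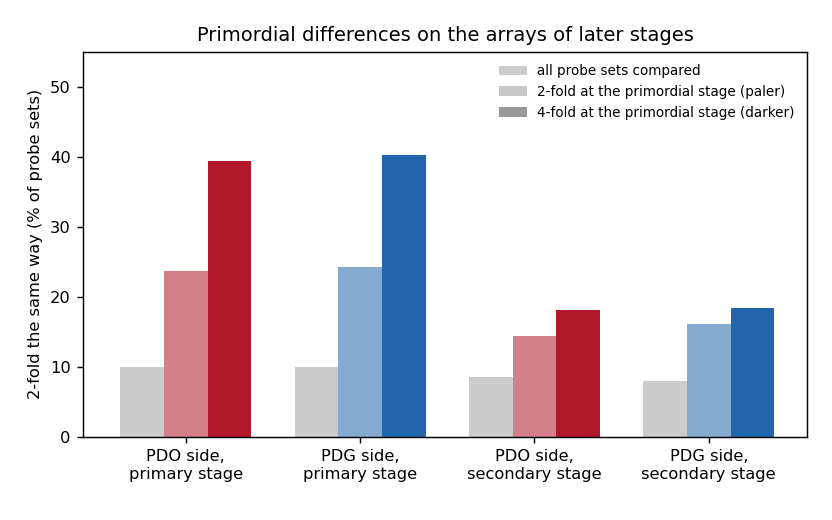
Share of probe sets, in percent, that were at least 2-fold higher on the oocyte array (PDO side) or GC array (PDG side) at the primary and the secondary stage: all 9739 compared (grey), those at least 2-fold different the same way at the primordial stage (paler), and those at least 4-fold different (darker). Shares are higher at the primary than at the secondary stage on both sides.

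The named genes behaved in different ways. Among the oocyte markers, ZP3 differed by 0.84 at the primary and 0.13 at the secondary stage, with signals of 1508 on PMG and 751 on SECO. NLRP5 differed by -0.55 and 0.21. ZP2 differed by 0.83 at the primary and -1.53 at the secondary stage. For the oocyte list the median went from 0.83 at the primordial stage to 0.73 and 0.04. COL3A1 differed by -2.70 at the primary and 0.54 at the secondary stage, and LPL by 0.24 and -0.64. Of the 15 largest genes on the PDO side 8 were at least 2-fold higher on PMO and 2 on SECO, and of those on the PDG side 6 on PMG and 1 on SECG. Of all 5528 genes, 10.1% were at least 2-fold higher on PMO, 7.63% on SECO, 8.72% on PMG and 7.43% on SECG.

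By list, the smooth muscle median was -1.65, -1.37 and -0.83 at the 3 stages in order. The stroma median was -1.13, -0.46 and -0.07, the basement membrane median -1.61, -0.91 and 0.00, and the endothelium median -1.31, -0.29 and 0.16. GC markers had -0.76, -1.16 and -0.84. The stroma, basement membrane and endothelium lists were thus nearer 0 at the secondary stage, whereas the GC list was not. Members were kept by their signals on PDO or PDG and not by those on later arrays. In all 5 lists every compared member was above the limit on PDG. The primordial medians thus lean to PDG in part by construction, and a move toward 0 later can come from this alone. Differences between stages rest on 1 array for each compartment and stage and were not tested. On SECO the GAPDH signal from the 3' end was 328 times that from the 5' end. On the other captured arrays it was 10.6 to 31.3 times. The 5' signal on SECO, 40.5, lay under that array's limit of 59.6. What part this had in the stage differences was not tested.

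A small set of the 5528 genes was at least 2-fold apart the same way at all 3 stages, 18 on the oocyte side and 28 on the GC side. Of these, 6 and 15 were above the limit on all 6 arrays. By probe sets, 4.35% of the 804 on the PDO side were 2-fold the same way at both later stages, against 1.48% of all compared. On the PDG side the share was 4.86% of the 967, against 1.47% of all compared. Those named next were chosen after their values were seen, CALD1 among them, apart from IGF2BP3 and the other list members. IGF2BP3, by the probe set that represents it, differed by 1.22, 1.22 and 1.14. DDX25, an RNA helicase of germ cells, had 847 on PDO and 408 on PDG and differences of 1.02, 1.25 and 1.24. NEIL2, a DNA glycosylase, had 2083 on PDO and 873 on PDG (1.24, 1.25 and 1.06). ME1, which makes NADPH from malate, had 980.1 on PDO and 384 on PDG (1.31, 1.28 and 1.01). The list members on the GC side included TPM1, TPM2, TPM4, CALD1, MYH11 and MYC. VEGFA, the vascular growth factor, had 179 on PDO and 665 on PDG and differences of -1.79, -1.50 and -2.61. The matrix protein SPARCL1 had 1318 on PDO and 4385 on PDG (-1.72, -1.34 and -1.28). SCD5, a stearoyl-CoA desaturase, had 558 on PDO and 1753 on PDG (-1.62, -1.56 and -1.72).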

How the data were processed

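Sheep RNA from oocytes and GC of primordial follicles, pooled from 2 animals, was amplified, labelled and hybridized to 1 Affymetrix Bovine array each. The authors deposited 1 table of MAS 5.0 signal intensity values on a linear scale for 10 arrays, made in GCOS with scaling to 100 and no further normalization; trimmed by 2% at each end, the mean signal was 100 on each array used. The versions of both programs are not given in the sources used here. Scaling fixes the overall level of each array, so a difference is relative to all other transcripts, and the 3' bias left by 2 amplification rounds weakens probes far from the 3' end. Both arrays held sheep RNA, so mismatches to the cattle probes are common to both.

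The 112 control probe sets were left out. Gene symbols came from GEO's annotation of the platform, by which 13292 probe sets have 1 symbol, 86 several and 10638 none. A constant of 20 was added, log2 was taken and PDG was subtracted from PDO for probe sets in the brightest 35% of either array, with Python 3.11.15, pandas 2.3.3 and numpy 2.4.6. A fold of 2 or more counted as a difference. With 1 array a side no difference has a test, an interval or a p-value. Named were the 15 genes with the largest differences each way, NLRP5, ZP3, COL3A1, LPL, the genes the study names, and up to 5 members of each of 28 gene lists with the largest differences in each direction; others are said to be chosen after their values were seen. The members and lists were chosen with earlier results of these data known. Counting was checked on simulated arrays with planted changes. Alternatives were the constants 1 and 50, a floor at 20, quantile normalization, centring on ribosomal protein genes, the brightest 30% or 50%, the brightest 35% on both arrays, a signal of at least 100, and the mean over the probe sets of a gene. The arrays of fetal ovary labelled otherwise were not used here.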

Additional observations from a re-analysis of the deposited data

Results flagged for a closer look

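PLAC8B and FABP5 were at least 2-fold higher on PDG at the primordial stage and at least 2-fold higher on the oocyte array at both later stages; the difference between the stages was not tested. PLAC8B differed by -2.69 at the primordial stage, with signals of 10.1 on PDO and 175 on PDG, and by 2.83 and 2.91 at the primary and secondary stages, with 137 on PMO, 2.13 on PMG, 173 on SECO and 5.72 on SECG. FABP5 differed by -1.48, 2.16 and 1.09, with 78.1 on PMO, 1.97 on PMG, 132 on SECO and 51.2 on SECG. The lower signal of PLAC8B lay under the limit of its array at all 3 stages, and that of FABP5 at the primary stage. At the secondary stage the FABP5 signal on SECG was just above that array's limit of 50.6. The sizes thus depend in part on the constant of 20.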

How the results depend on the processing

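No paired analysis was possible because each side has 1 array, and for the same reason no array could be left out. The order of the counts, more on PDG at 2-fold and at 4-fold, turned under centring on ribosomal protein genes; the cause was not tested. With a constant of 1 the 4-fold counts were 236 on PDO and 315 on PDG, and the shares that recurred at the primary and secondary stage 27.5% and 21.8% for PDO and 30.4% and 20.8% for PDG. With 50 the 2-fold counts were 386 and 538, the 4-fold counts 8 and 35, and the PDO shares 19.9% and 7.51%. The constant damps dim signals by its construction. A floor at 20 gave 1226 on PDO at 2-fold, 88 and 169 at 4-fold, 28.6% for PDG at the primary and 19.2% for PDO at the secondary stage. The brightest 35% on both arrays left 369 and 535 at 2-fold, 10 and 52 at 4-fold, and 28.8% for PDG at the primary stage. With the brightest 50% there were 1335 on PDO at 2-fold, and 19.9% and 20.2% recurred at the primary stage. A signal of at least 100 left 476 on PDO, with 27.1% and 29.2%. Centring gave 69 on PDO at 4-fold against 58 on PDG, and 9.89% for PDO and 21.4% for PDG at the secondary stage. Quantile normalization and the brightest 30% left all of these counts within 1.5 times and all shares within their 95% binomial interval. That interval treats probe sets as independent, which they are not, and served only as a mark for a changed share. All 105 named genes past 2-fold kept their sign under the 6 alternatives run on genes. The constants and the floor cannot turn a sign, and centring moved each difference by 0.17 alone. Of the 6, only quantile normalization and the mean over probe sets could thus have turned one. Of these 105, the mean over probe sets brought 8 within 2-fold, centring 16, and the constant of 50 18. The medians of the smooth muscle and endothelium lists stayed past 2-fold, while that of stroma reached -0.96 with centring and -0.89 with the constant of 50.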
